A study of Mus musculus with 8 samples.

Results

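The 29 genes described here encode the enzymes and regulators of cholesterol and fatty acid synthesis, together with a sterol carrier and an oxysterol enzyme. They were taken by name from the 20408 genes listed in any library, with earlier results of these data known, and all 29 were listed in all 8 libraries. The genes fall into 5 groups by role, with 8 from the mevalonate pathway to squalene, 10 from squalene to cholesterol, 4 regulators, 5 of fatty acid synthesis, and the pair Stard4 and Ch25h.

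Cells build cholesterol from acetyl-CoA through mevalonate and squalene, and fatty acids through malonyl-CoA. The transcription factors SREBP1 and SREBP2, encoded by Srebf1 and Srebf2, are escorted by SCAP to the Golgi when sterols are low, are cut there and switch on most of these enzymes, whereas INSIG1 holds SCAP back in the endoplasmic reticulum when sterols are plentiful. CH25H makes 25-hydroxycholesterol, an oxysterol that blocks SREBP processing and is known as an interferon-inducible product in myeloid cells.

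The cells were tumour endothelial cells (ECs) sorted by FACS as live CD45-/CD31+ cells, and single-cell RNA sequencing was done with 3′ chemistry. Spontaneous tumours arose in MMTV-PyMT mice, in which the MMTV promoter drives the oncogene in mammary epithelium, and treatment began at 9 weeks of age. Implanted tumours were grown from MMTV-PyMT tumour cells that had been cultured for 2 days and placed with Matrigel in the mammary fat pad of female mice 8 to 9 weeks old. Tumours were injected i.t. with PBS or with 14 μg of 3′3′cGAMP, a cyclic dinucleotide that activates STING, in 70 μl and were taken 3 h later. Each of the 4 combinations of tumour model and injection had 2 libraries. The labels give C57BL/6 for every library, whereas the methods name FVB for both models, so the strain is not settled. The methods give 2 mice per group, but the labels do not tie a library to a mouse, so p-values measure the spread between libraries.

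Of 8204 cells, 7159 (87.3%) carried at least 1 UMI of Pecam1, the gene of CD31, and the values below are from these cells, 601 to 1529 per library with 7451522 to 16338968 UMIs. The EC label was met by the defining genes, since Cdh5 stood at 1035 to 1242 CPM and Cldn5 at 681 to 941 CPM over the libraries. CPM here is the mean over cells of UMIs scaled to the same total in each cell. The adipocyte list summed to 0.351 to 2.64 CPM over the libraries. The epithelial list summed to 158 to 1086 CPM, the mural list to 76.2 to 724 CPM and the myeloid list to 11.4 to 201 CPM. The fibroblast list summed to 13.1 to 98.4 CPM and the T cell list to 2.44 to 30.9 CPM. Each of these lists was highest in a cGAMP library. Their part in the results below was not tested except where values without such cells are given. Replicate 1 of implanted cGAMP was shallow, with 37.9% of its cells under 2000 UMIs against 3.28% to 10.6% elsewhere. The libraries shared 7 of 8197 distinct barcodes.

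The first question was how the lipid genes responded to cGAMP. In both models Ch25h rose and Scd2 and Stard4 fell, and most genes that synthesise cholesterol did not pass the test. In spontaneous tumours 3 of 27 tested genes were called at an adjusted p under 0.05 (limma, Benjamini-Hochberg over 10424 genes), against 12.7% of all genes tested. In implanted tumours 4 of 27 were called, against 25% of all genes. Both shares lie near or below that background. The median log2 fold change of the 27 genes was -0.27 in spontaneous and -0.18 in implanted tumours, against -0.10 over all genes in both, and 20 of the 27 estimates were negative in each model. Lss and Tm7sf2, which act late in cholesterol synthesis, reached at most 2.79 and 1.04 CPM and were too low to test.

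Ch25h, on chromosome 19 from 34473778 to 34475164 on the minus strand (GRCm38), overlaps an exon of Gm26902 on the other strand. Its level was 10.4 and 10.5 CPM in the spontaneous PBS libraries and 28.0 and 26.2 CPM in the spontaneous cGAMP libraries. It was 32.7 and 23.2 CPM in implanted PBS and 57.1 and 58.7 CPM in implanted cGAMP. Both cGAMP libraries lay above both PBS libraries in each model, and the implanted PBS libraries lay on either side of the spontaneous cGAMP ones. The log2 fold change after cGAMP was 1.30 ± 0.15 (SE, limma adjusted p = 0.000563) in spontaneous and 1.04 ± 0.15 (limma adjusted p = 0.00132) in implanted tumours. Since myeloid cells can express Ch25h, the rise was fitted again without cells holding UMIs of 3 or more markers of another cell type, and it was 0.94 (limma adjusted p = 0.0122) and 1.19 (limma adjusted p = 0.00167). In the 1963 cells with at most 1 marker of another cell type the rise of Ch25h was 0.79 and 1.15 but no longer passed the test (limma adjusted p = 0.267 and 0.113). This set kept 57 of 670 and 99 of 693 cells in the spontaneous cGAMP libraries, against 155 to 491 cells in the others. The smaller number of cells and the absence of other cell types cannot be told apart in it, here or below.

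Scd2 encodes a stearoyl-CoA desaturase, which puts the first double bond into saturated fatty acids, and lies on chromosome 19 from 44293674 to 44306864 on the plus strand, where an exon of Mir5114 overlaps it on the same strand. It measured 106 and 88.0 CPM in spontaneous PBS and 65.7 and 61.1 CPM in spontaneous cGAMP. In implanted tumours it measured 101 and 86.9 CPM after PBS and 40.4 and 37.0 CPM after cGAMP. The cGAMP libraries were below the PBS libraries in both models without overlap. The log2 fold change was -0.60 ± 0.12 (SE, limma adjusted p = 0.011) in spontaneous and -1.26 ± 0.12 (limma adjusted p = 0.000107) in implanted tumours. The implanted fall kept its call in all 19 alternatives, with log2 values from -1.39 to -1.03. The spontaneous fall lost it without spontaneous PBS replicate 1, without either spontaneous cGAMP replicate (highest limma adjusted p = 0.088), and in cells with at most 1 marker of another type (0.453).

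Stard4, whose product carries sterols between membranes and is itself a known SREBP target, followed the same order. It stood at 60.4 and 52.8 CPM in spontaneous PBS and at 38.5 and 39.7 CPM in spontaneous cGAMP. In implanted tumours it went from 58.9 and 56.5 CPM after PBS to 33.9 and 37.3 CPM after cGAMP. All 4 cGAMP libraries were below all 4 PBS libraries. The log2 fold changes were -0.52 ± 0.10 (SE, limma adjusted p = 0.0123) and -0.68 ± 0.10 (limma adjusted p = 0.00164). The Stard4 call in spontaneous tumours was lost without the same 3 libraries as that of Scd2, and in cells with at most 1 marker of another type neither model passed (limma adjusted p = 0.414 and 0.536).

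**Figure D1:**
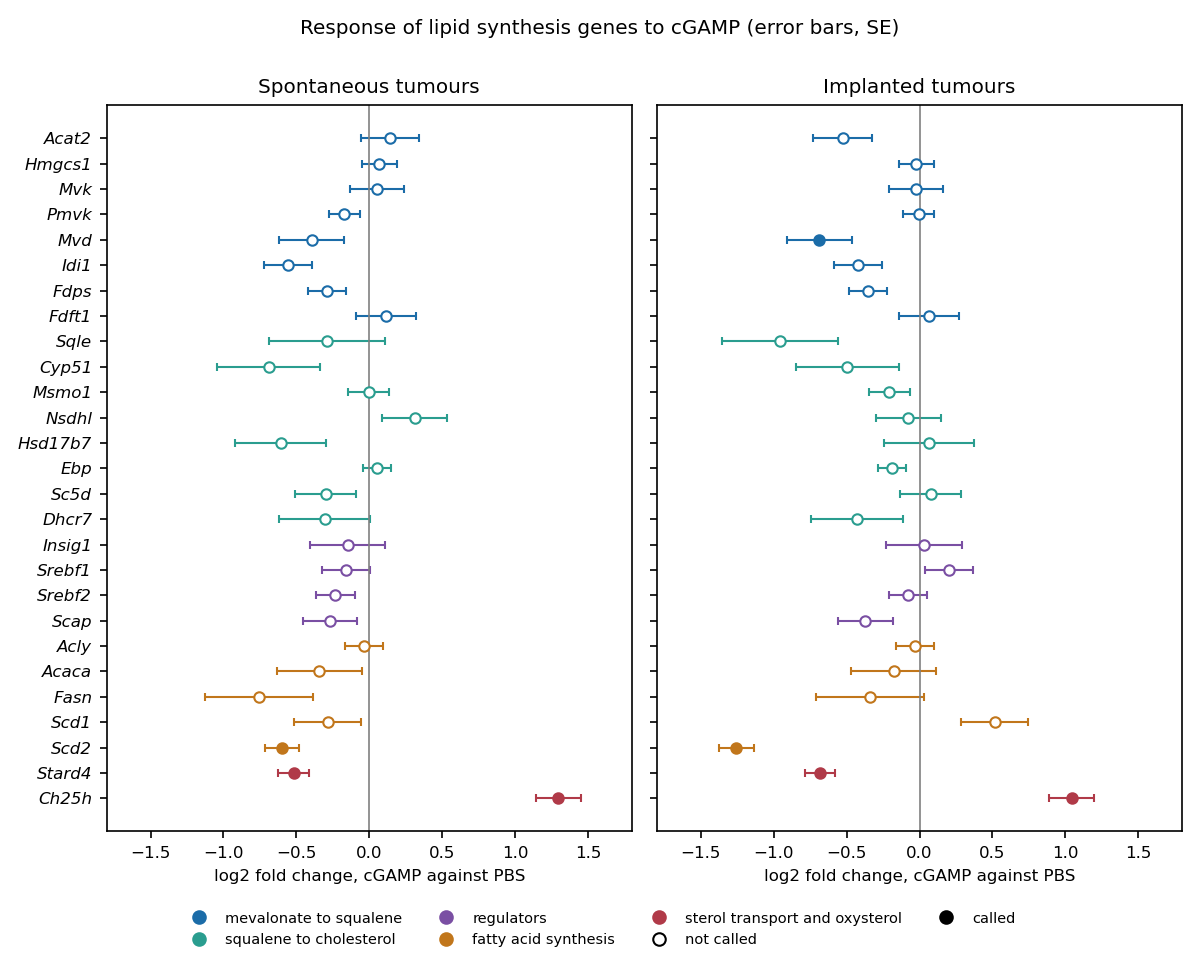
Log2 fold change of cGAMP against PBS for the 27 tested genes in spontaneous (left) and implanted (right) tumours, with SE from limma as error bars, colour by role and filled points for an adjusted p under 0.05. Ch25h lies at 1.30 and 1.04, Scd2 at -0.60 and -1.26 and Stard4 at -0.52 and -0.68, while most enzymes of cholesterol synthesis have error bars that reach or lie close to 0.

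Among the mevalonate genes, Mvd, the diphosphomevalonate decarboxylase, fell in implanted tumours, from 10.2 and 11.8 CPM after PBS to 7.49 and 5.46 CPM after cGAMP. Its log2 fold change was -0.69 ± 0.22 (SE, limma adjusted p = 0.0492), a call lost in 13 of 19 alternatives. In spontaneous tumours Mvd measured 12.0 and 8.71 CPM after PBS and 7.85 and 7.24 CPM after cGAMP, without overlap and without passing the test (limma adjusted p = 0.269). Idi1, the isopentenyl diphosphate isomerase, measured 11.0 and 10.8 CPM against 6.81 and 7.36 CPM after cGAMP in spontaneous tumours. In implanted tumours it measured 15.7 and 16.1 CPM against 12.8 and 10.6 CPM. Idi1 thus did not overlap between treatments in either model, at log2 values of -0.56 (limma adjusted p = 0.0539) and -0.42 (limma adjusted p = 0.0893). Hmgcs1, the HMG-CoA synthase, stood at 25.9, 26.1, 29.3 and 25.4 CPM in the spontaneous libraries (PBS, then cGAMP) and 33.0, 35.2, 35.9 and 31.3 CPM in the implanted ones. Its log2 fold changes were 0.07 ± 0.12 and -0.02 ± 0.12 (SE). The other 5 mevalonate genes (Acat2, Mvk, Pmvk, Fdps and Fdft1) ranged from -0.29 to 0.14 in spontaneous and from -0.53 to 0.06 in implanted tumours, none called.

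From squalene to cholesterol, 0 of 8 tested genes passed the test in either model by limma, and 1 of them, Sqle, had an unadjusted p under 0.05, in implanted tumours. The share of all genes with an unadjusted p under 0.05 is not given, here or below, so such counts cannot be set against it. Sqle, the squalene epoxidase, measured 8.54 and 9.24 CPM in implanted PBS and 5.73 and 2.87 CPM in implanted cGAMP, a log2 fold change of -0.95 ± 0.40 (SE, limma adjusted p = 0.111). In spontaneous tumours it measured 4.80 and 3.91 CPM after PBS and 5.41 and 1.97 CPM after cGAMP, where the groups overlapped. The other 7 tested genes of this step (Cyp51, Msmo1, Nsdhl, Hsd17b7, Ebp, Sc5d and Dhcr7) lay between -0.69 and 0.31 in spontaneous tumours and between -0.50 and 0.08 in implanted ones.

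None of the 4 regulators passed the test after cGAMP (limma, 0 of 4 also at an unadjusted p under 0.05). Insig1 measured 11.0 and 11.1 CPM in spontaneous PBS, 8.32 and 11.7 CPM in spontaneous cGAMP, 16.7 and 20.1 CPM in implanted PBS and 25.3 and 13.9 CPM in implanted cGAMP. Srebf2 measured 19.5 and 22.8 CPM, 17.7 and 17.9 CPM, 24.6 and 25.2 CPM, and 25.5 and 21.7 CPM in the same order. Srebf1 measured 27.6 and 29.7 CPM, 26.9 and 24.3 CPM, 24.7 and 20.1 CPM, and 30.3 and 21.9 CPM. The implanted cGAMP libraries were the most spread for Insig1 and Srebf1, with the shallow replicate 1 the higher one for both. Scap gave log2 fold changes of -0.27 ± 0.19 and -0.37 ± 0.19 (SE).

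Of the 5 genes of fatty acid synthesis, Scd2 was the 1 called in each model. Fasn, the fatty acid synthase, measured 10.5 and 8.07 CPM in spontaneous PBS and 4.02 and 6.29 CPM in spontaneous cGAMP, without overlap (log2 -0.76 ± 0.37 SE, limma adjusted p = 0.209). In implanted tumours Fasn measured 7.60 and 7.83 CPM after PBS and 9.52 and 3.52 CPM after cGAMP, on either side of the PBS libraries. Scd1, the neighbouring desaturase gene on chromosome 19 from 44394455 to 44407879 on the minus strand, was called in neither response. It measured 11.4 and 16.0 CPM in spontaneous PBS, 10.2 and 11.6 CPM in spontaneous cGAMP, 5.65 and 7.35 CPM in implanted PBS and 11.2 and 8.30 CPM in implanted cGAMP, so that in implanted tumours both cGAMP libraries were the higher (log2 0.52 ± 0.23 SE, limma adjusted p = 0.132). Acly, which makes acetyl-CoA from citrate, gave -0.03 ± 0.13 (SE) in both models, and Acaca, the acetyl-CoA carboxylase, -0.34 ± 0.29 and -0.18 ± 0.29 (SE).

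The count of called genes depended on how a library was summarised. With UMIs summed over cells, which gives deep cells more weight, 10 of 27 genes were called in spontaneous and 8 in implanted tumours, against 27.4% and 35.9% of all genes summed in this way, and all but Ch25h were lower. In spontaneous tumours Mvd, Idi1, Sqle, Cyp51, Hsd17b7, Sc5d and Fasn then joined, and in implanted tumours Hmgcs1, Idi1, Sqle and Fasn. The calls also changed when 1 library was left out, which leaves 1 library in a group. In spontaneous tumours those of Scd2 and Stard4 depended on single libraries, as given above.

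**Figure D2:**
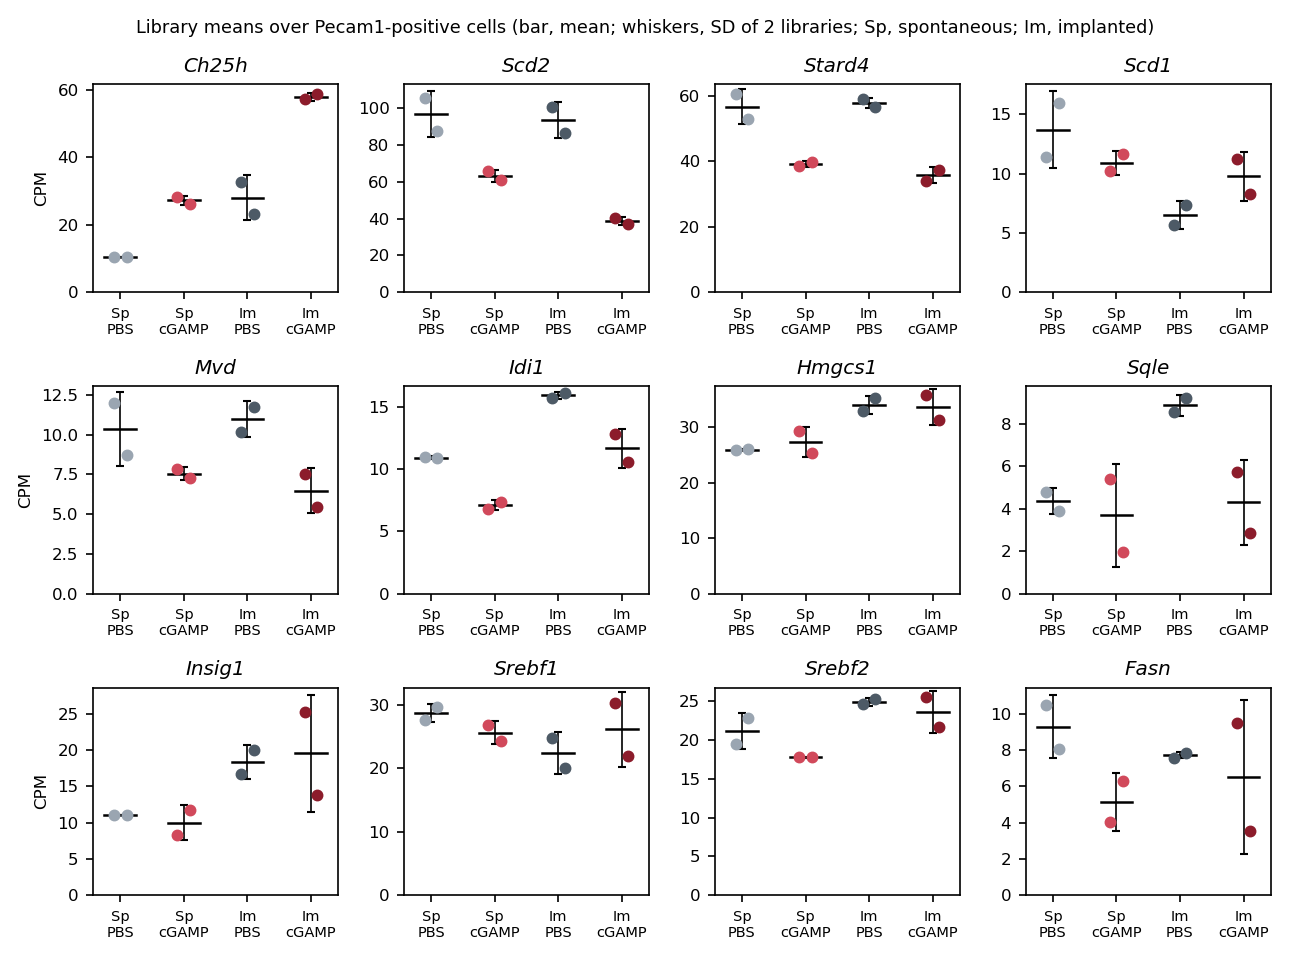
Level of 12 genes in each library (points, CPM over cells with a Pecam1 UMI), with the mean and SD of 2 libraries per group. Ch25h rises and Scd2 and Stard4 fall with cGAMP in both models without overlap, whereas the libraries of Srebf1, Insig1 and Fasn overlap after cGAMP in implanted tumours.

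The second question was whether the response differed between the models. The difference of the responses (implanted minus spontaneous) was called for 0 of 27 genes by limma, against 0.662% of all genes. An unadjusted p under 0.05 was found for 3 of the 27 (Acat2, Scd1 and Scd2), a count without the share of all genes beside it. The fall of Scd2 was the larger in implanted tumours, by -0.66 ± 0.17 on the log2 scale (SE, limma adjusted p = 0.128), and in cells with at least 2000 UMIs this difference was -0.80 and passed (limma adjusted p = 0.0472). The adjusted p of Scd2 ran from 0.0472 to 0.621 over the 19 alternatives. For Ch25h the difference was -0.25 ± 0.22 and for Stard4 -0.16 ± 0.15 (SE), so differences of that size were not resolved with 2 libraries per group.

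The third question was how the models differed under the same injection. These comparisons use the same libraries as the responses. After PBS, 2 of 27 genes were called against 7.83% of all genes, with Ch25h higher by 1.32 ± 0.15 (SE, limma adjusted p = 0.00123) and Scd1 lower in implanted tumours by -0.96 ± 0.23 on the log2 scale (limma adjusted p = 0.035). The Scd1 call was lost in 9 of 19 alternatives, of which 5 left out 1 library (spontaneous PBS replicate 2, either spontaneous cGAMP or either implanted PBS replicate). After cGAMP, 3 of 27 were called against 13.8% of all genes. They were Ch25h, higher by 1.07 ± 0.15 (limma adjusted p = 0.00403), Idi1, higher by 0.64 ± 0.16 (limma adjusted p = 0.0324), and Scd2, lower by -0.70 ± 0.12 (limma adjusted p = 0.00688). Without spontaneous cGAMP replicate 2 none of these 3 passed, and Ch25h then had a limma adjusted p of 0.0557. Scd2 was also lost without spontaneous cGAMP replicate 1 (limma adjusted p = 0.0518), and Idi1 in 9 of 19 alternatives. The count moved in both directions when 1 library was left out. In cells with at most 1 marker of another type 0 genes were called by limma after either injection, with Ch25h at log2 values of 1.05 and 1.41 (limma adjusted p = 0.272 and 0.0661).

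The libraries of the models did not overlap after PBS for 20 of the 27 tested genes. In 14 both implanted PBS libraries were higher, against 21.5% of all genes tested, and in 6 both were lower, against 36.5% of all genes. Fdps, the farnesyl diphosphate synthase, measured 25.6 and 26.3 CPM in spontaneous PBS and 36.6 and 37.0 CPM in implanted PBS (log2 0.49 ± 0.13 SE, limma adjusted p = 0.054). Hmgcs1, Idi1, Sqle, Cyp51, Msmo1, Nsdhl, Fdft1, Insig1 and Srebf2 had the same order of libraries, with log2 differences of 0.23 to 0.89, and neither they nor Fdps passed the test. Hsd17b7, Srebf1, Acly, Acaca, Fasn and Scd1 had the opposite order. In the mevalonate group the median difference after PBS was 0.33 and in the group from squalene to cholesterol 0.26, against -0.06 over all genes. The 5 fatty acid genes had a median of -0.32. With UMIs summed over cells 7 of 27 genes were called after PBS and 8 after cGAMP, against 12.7% and 20% of all genes.

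The fourth question was which vessel types express these genes. Each marker value was divided by the mean of that marker over all cells with a Pecam1 UMI. A cell went to the marker list with the highest mean of these values, if at least 2 markers of that list had a UMI. The classes were arterial (1228 cells), tip (1308), venous (1764), proliferative (361), AQP7 capillary (1386) and lymphatic (413), and 699 cells with a median of 1598 UMIs had no class. Each class was compared with all other cells with a Pecam1 UMI within the same library, with the library as a block. The classes are ranges of marker expression, and 52 to 320 cells per class were at the minimum of 2 markers. Because every class is set against cells of the others, the 5 comparisons are not independent. The lymphatic cells were not tested.

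In arterial-marker cells 3 of 8 mevalonate genes and 2 of 4 regulators were higher, and Ch25h was far lower. The other mevalonate genes did not pass the test, among them Mvd with a log2 difference of -0.49, Hmgcs1 with -0.01 and Acat2 with 0.01. Over the whole list 8 of 27 genes were higher and 1 was lower, against 14.6% and 18.6% of all genes (limma with the library block). Idi1 averaged 22.4 ± 8.23 CPM in arterial-marker cells and 9.21 ± 3.05 CPM in the rest (SD, n = 8 libraries), higher in 8 of 8 libraries, with a log2 difference of 1.18 ± 0.17 (SE, limma adjusted p = 3.52e-05). Cyp51, the lanosterol demethylase, averaged 14.1 against 7.14 CPM, higher in 8 of 8 libraries (log2 0.81 ± 0.17 SE, limma adjusted p = 0.00133). Scd1 averaged 15.6 against 9.04 CPM, higher in 7 of 8 libraries (0.82 ± 0.20 SE, limma adjusted p = 0.00436). The other 5 that were higher, Fdps, Srebf2, Insig1, Pmvk and Scd2, had log2 differences of 0.39 to 0.61 and were higher in 7 or 8 libraries. Insig1 turned to -0.0105 in cells with at most 1 marker of another type (limma adjusted p = 0.993). Ch25h averaged 11.2 ± 11.7 CPM in arterial-marker cells against 35.0 ± 20.0 CPM in the rest (SD, n = 8), lower in 8 of 8 libraries, with a log2 difference of -2.11 ± 0.30 (SE, limma adjusted p = 3.22e-05). The arterial count was 9 or 10 when any 1 library was left out, and 2 in cells with at most 1 marker of another type.

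Venous-marker cells had less of many synthesis genes, with 10 of 27 genes lower and 1 higher, against 17.2% and 8.43% of all genes. Scd1 averaged 5.82 against 11.6 CPM in the rest (log2 -1.05 ± 0.27 SE, limma adjusted p = 0.00923) and Sqle 2.66 against 6.16 CPM (-0.90 ± 0.21 SE, limma adjusted p = 0.00464), both lower in 7 of 8 libraries. Cyp51 averaged 4.88 against 9.58 CPM (-0.77 ± 0.21 SE, limma adjusted p = 0.0134) and Fdps 18.9 against 31.2 CPM (-0.67 ± 0.11 SE, limma adjusted p = 0.000342), the latter lower in 8 of 8. Hmgcs1, Pmvk, Idi1, Msmo1, Insig1 and Srebf2 were lower by -0.43 to -0.63 on the log2 scale. Ch25h was the 1 gene that was higher, at 37.3 against 28.6 CPM (0.66 ± 0.21 SE, limma adjusted p = 0.0300), higher in 6 of 8 libraries, and this call was lost when any of 5 libraries (either spontaneous PBS, either implanted PBS or spontaneous cGAMP replicate 1) was left out. Set side by side, Idi1 was higher in arterial-marker than in venous-marker cells in 8 of 8 libraries and Ch25h in 0 of 8.

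In tip-marker cells 6 of 27 genes were lower and 0 higher, against 15.9% and 9.8% of all genes. Scd1 averaged 5.40 against 11.4 CPM (log2 -1.23 ± 0.26 SE, limma adjusted p = 0.00249) and Scd2 58.1 against 76.8 CPM (-0.44 ± 0.10 SE, limma adjusted p = 0.00513), lower in 7 and 8 of 8 libraries. Fasn, Acaca, Idi1 and Sc5d were lower by -0.64 to -0.77, and each of these 4 lost its call without at least 1 library. Ch25h averaged 53.6 ± 40.7 against 24.7 ± 12.8 CPM in the rest (SD, n = 8) but was higher in 5 of 8 libraries and was not called (log2 0.61 ± 0.32 SE, limma adjusted p = 0.188). Proliferative-marker cells, with enough cells in 6 libraries, had 2 of 27 genes lower against 12.1% of all genes, Scd1 (2.78 against 10.7 CPM) and Scd2 (56.0 against 83.4 CPM). AQP7 capillary-marker cells had 4 lower against 10.5%, namely Ch25h (21.6 against 34.2 CPM, log2 -0.96 ± 0.22 SE, limma adjusted p = 0.005), Fasn, Insig1 and Srebf2. In spontaneous tumours Ch25h was 3.60, 5.41, 5.85 and 12.0 CPM in this class (PBS, then cGAMP), against 10.4, 10.5, 28.0 and 26.2 CPM over all cells. In implanted tumours it was 31.4, 19.6, 63.5 and 31.3 CPM against 32.7, 23.2, 57.1 and 58.7 CPM, thus higher in cGAMP replicate 1. The difference between the models in this class was not tested. The counts of the tip, proliferative and AQP7 capillary classes fell as low as 2, 1 and 1 when 1 library was left out, the lowest for tip without implanted cGAMP replicate 2, for proliferative without spontaneous PBS replicate 1 or either implanted PBS replicate, and for AQP7 capillary without spontaneous PBS replicate 1 or implanted cGAMP replicate 1. The AQP7 capillary count was 2 without spontaneous PBS replicate 2, spontaneous cGAMP replicate 2 or implanted PBS replicate 2.

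**Figure D3:**
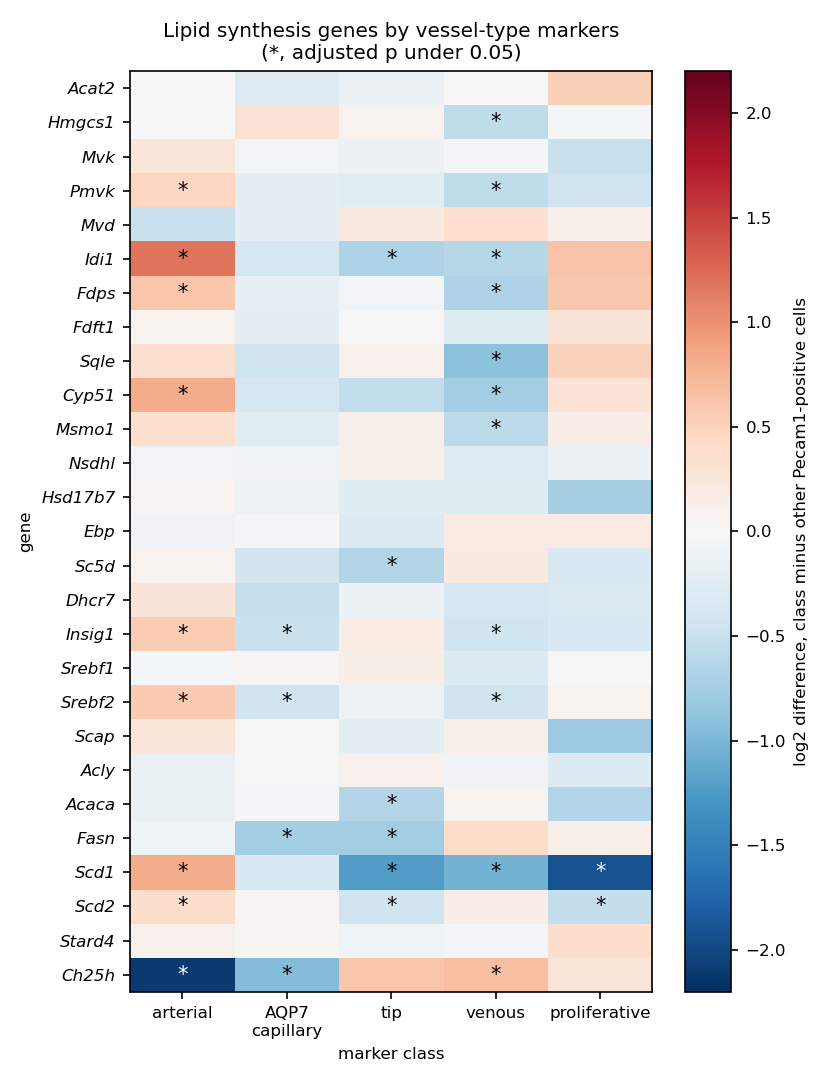
Log2 difference between each marker class and the other cells with a Pecam1 UMI, for the 27 tested genes (rows) and 5 classes (columns), with an asterisk for a limma adjusted p under 0.05. Idi1 reaches 1.18 in the arterial column, where Ch25h is at -2.11, and 10 genes are lower in the venous column.

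The promoters of the 29 genes were looked up in RefSeq (GRCm38.p6), whatever the class results, and searched over 250 bases before the annotated start, on both strands. Of the 29 genes, 23 matched, with 29 promoter entries. The box CCAAT of NF-Y, a known partner of SREBP, was found in 19 of the 29 (65.5%) against 33.9% of 32851 promoters. The E-box CACGTG was found in 5 (17.2%) against 6.02%, the sterol regulatory element TCACNCCAC in 1 (3.45%) against 1.05%, and a searched form of the interferon-stimulated response element in 1 (3.45%) against 2.98%. The marked matches do not overlap each other, and a match is a description of letters, not of a bound site. Hmgcs1 and the regulators Insig1 and Srebf2 are shown because they differ between vessel types and hold matches. Of these, Hmgcs1 was called in venous-marker cells only. Ch25h is shown because it differed most between vessel types and holds none of the 4 motifs. Idi1 and Cyp51, with larger arterial differences than those 3 (log2 1.18 and 0.81), held none of the 4 motifs in the stretch defined below and are not shown. Their CCAAT matches counted above lie beyond that stretch. Whether the motifs go with the vessel-type differences was not tested. Capitals mark matches (ATTGG is CCAAT on the other strand), the sequence is read 5′ to 3′ on the strand of the gene, and it stops before the first base that GENCODE vM21 annotates as transcribed. Hmgcs1 is chr13:119690101-119690350 (plus), Insig1 is chr5:28071162-28071362 (plus), Srebf2 is chr15:82147019-82147180 (plus) and Ch25h is chr19:34475165-34475398 (minus).
Hmgcs1: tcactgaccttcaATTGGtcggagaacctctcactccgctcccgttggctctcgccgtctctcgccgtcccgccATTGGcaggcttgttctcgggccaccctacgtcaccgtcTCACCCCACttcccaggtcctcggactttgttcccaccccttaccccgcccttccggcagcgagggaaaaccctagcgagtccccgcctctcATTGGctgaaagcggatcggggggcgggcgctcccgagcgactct
Insig1: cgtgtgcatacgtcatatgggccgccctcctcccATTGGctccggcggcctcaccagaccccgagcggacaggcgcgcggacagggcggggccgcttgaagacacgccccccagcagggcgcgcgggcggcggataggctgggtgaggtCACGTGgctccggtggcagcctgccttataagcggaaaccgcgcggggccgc
Srebf2: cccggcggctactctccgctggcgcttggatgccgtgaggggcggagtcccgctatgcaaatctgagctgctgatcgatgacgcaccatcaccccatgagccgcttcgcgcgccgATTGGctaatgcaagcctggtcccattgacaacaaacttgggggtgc
Ch25h: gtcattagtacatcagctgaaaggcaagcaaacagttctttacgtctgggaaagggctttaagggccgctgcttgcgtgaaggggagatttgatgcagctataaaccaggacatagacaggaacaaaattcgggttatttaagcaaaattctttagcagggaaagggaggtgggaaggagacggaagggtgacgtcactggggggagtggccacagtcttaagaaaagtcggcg

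The fifth question was whether the cGAMP response was seen within each class. Values were set out for the arterial, tip, venous, AQP7 capillary and lymphatic classes in both models, that is 10 pairs, since proliferative-marker cells were too few in 1 library of each cGAMP group. Scd2 was lower in both cGAMP libraries than in both PBS libraries in 10 of 10. Stard4 was lower in both in 8 of 10. Ch25h was higher in both in 7, lower in both in 1 and overlapping in 2. These counts are descriptions without a test. The pairs are cuts of the same libraries in which these genes had been called over all cells, so they are not separate evidence of the response. Of the other genes, Mvd, Sqle, Scap and Fasn were each lower in both in 6 of 10. In tip-marker cells Ch25h measured 10.3 and 2.32 CPM in spontaneous PBS, 54.3 and 62.1 CPM in spontaneous cGAMP, 60.8 and 22.6 CPM in implanted PBS and 109 and 108 CPM in implanted cGAMP. In arterial-marker cells it measured 2.94 and 0 CPM, then 18.9 and 7.45 CPM, then 3.22 and 2.17 CPM, then 24.99 and 29.8 CPM in the same order. In arterial-marker cells too, both cGAMP libraries lay above both PBS libraries in each model. In venous-marker cells the levels were closer, at 17.1 and 27.5, 38.6 and 30.4, 45.0 and 40.6, and 51.6 and 47.8 CPM.

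**Figure D4:**
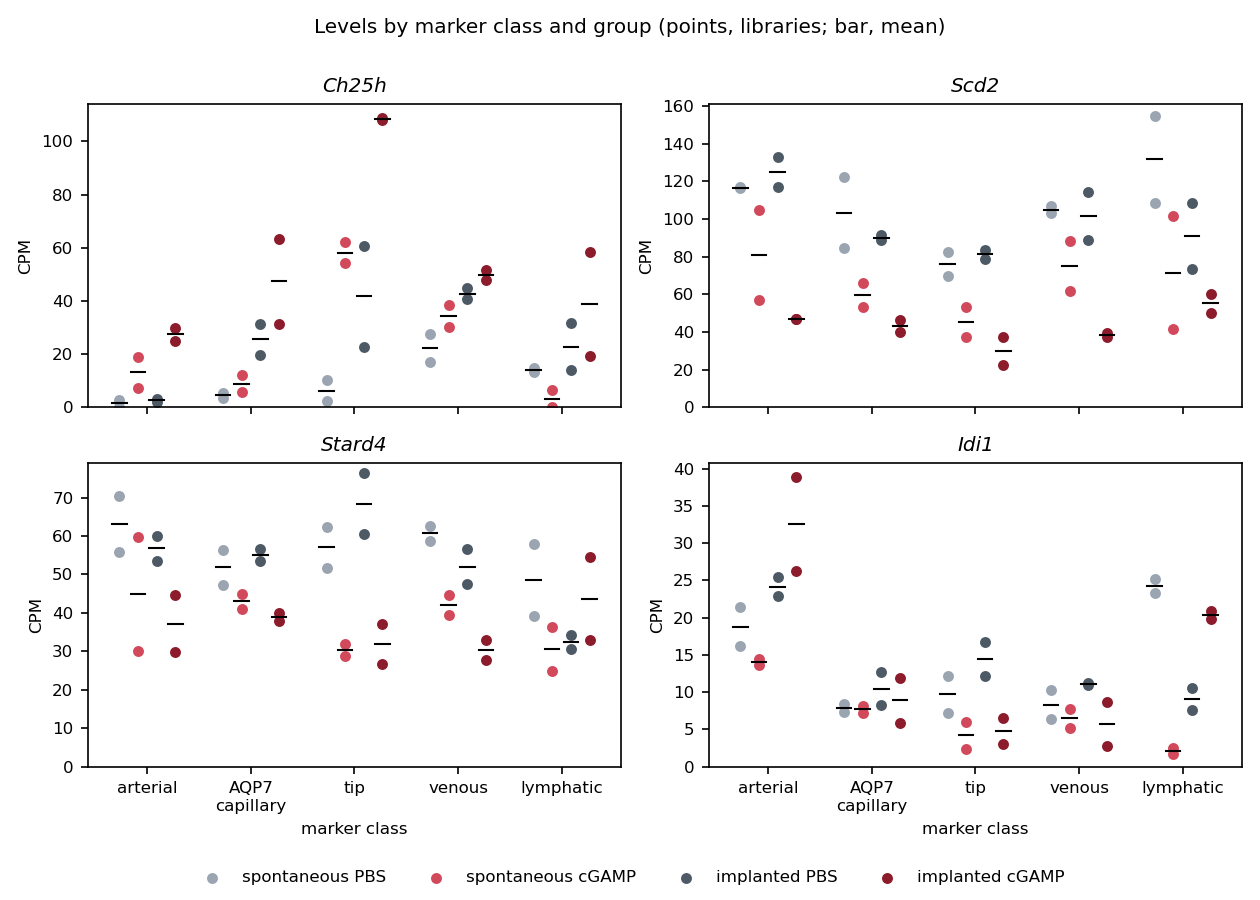
Level of Ch25h, Scd2, Stard4 and Idi1 by marker class and group, with 1 point per library in CPM and a bar at the mean of the 2 libraries. Ch25h reaches 109 and 108 CPM in tip-marker cells of implanted cGAMP, and Scd2 is lower after cGAMP in every class and model shown.

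Idi1 had different orders of libraries in different classes. In arterial-marker cells of implanted tumours it measured 25.4 and 22.9 CPM after PBS and 38.9 and 26.2 CPM after cGAMP, with both cGAMP libraries higher. In tip-marker cells of the same tumours it measured 12.2 and 16.8 CPM after PBS and 6.53 and 3.02 CPM after cGAMP, with both cGAMP libraries lower. Over the 10 pairs Idi1 was higher in both cGAMP libraries in 2, lower in both in 5 and overlapping in 3, and the difference between classes was not tested.

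The rest of the pathway was described with 33 further genes of sterol uptake and late synthesis, of efflux under LXR, and of fatty acid elongation and activation, of which 31 were tested. After cGAMP 1 rose and 3 fell in spontaneous tumours, and 2 rose and 6 fell in implanted ones. These 4 and 8 of 31 lie near the 12.7% and 25% of all genes called in either direction. Npc2, which moves cholesterol out of lysosomes, measured 177 and 171 CPM in spontaneous PBS, 397 and 349 CPM in spontaneous cGAMP, 190 and 177 CPM in implanted PBS and 504 and 552 CPM in implanted cGAMP. It rose without overlap, by 1.09 ± 0.09 (SE, limma adjusted p = 3.26e-05) and 1.52 ± 0.09 on the log2 scale (limma adjusted p = 8.4e-06). Apoe, the lipid carrier, measured 679 and 812, 390 and 428, 296 and 353, and 146 and 183 CPM in the same order. It fell by 0.86 ± 0.13 and 0.98 ± 0.13 on the log2 scale (SE, limma adjusted p = 0.00302 and 0.000811). Lpin1 had -0.67 (limma adjusted p = 0.0399) in spontaneous tumours, and Cyb5r3 had -0.94 (limma adjusted p = 0.000282) in implanted ones.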

How the data were processed

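The authors made 10x 3′ v3 libraries and mapped them to mm10. The submitters' processing notes name Cell Ranger 3.0.0 and Seurat 3.1.1. They dropped cells under 500 genes, cells over 10% mitochondrial transcripts, and genes seen in fewer than 3 cells. The deposited values are natural log values per cell, ln(1 + UMIs × 10000 / total UMIs). Dividing by the smallest value of a cell gave whole UMIs (100% within 0.01). 0 columns were unused.

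Members and gene lists were chosen with earlier results of these data known. Cells with a Pecam1 UMI were kept, linear values were averaged per library as CPM, and log2(CPM + 1) of the 10424 genes that reached 5 CPM in 2 or more libraries was tested with limma 3.58.1 in R 4.3.3 (eBayes with trend, all 8 libraries in 1 fit, Benjamini-Hochberg, adjusted p under 0.05). Fold changes are on that scale, which understates low genes. The fit was tested on simulated data in which only genes of at least 10 CPM were changed, with the same added spread in all libraries. That simulation does not show how the fit treats low genes or the shallow cells of 1 library. Doublets were not treated here. The cell numbers in the supplement of the study differ from those in the files. Vessel classes needed 2 markers with a UMI and 10 cells per library. Genes called in any comparison, together with Hmgcs1, Sqle, Fasn, Insig1, Srebf1 and Srebf2, are given per library. The 3 further pathway genes of smallest adjusted p per response are given too. For the arterial and venous classes the largest differences are given in full. For the other classes some called genes are given by range, CPM or name only. Class values of Scd1, Idi1 and Ch25h beyond that were singled out after their values were seen. Alternatives were pseudocounts, filter, scaling, summed UMIs, cell sets, marker minimum, block and each library left out. The cell set without 3 markers of another type was added after seeing the data. Gene positions are from GENCODE vM21 and promoters from RefSeq GRCm38.p6. 1 further pathway gene is not reported here.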

Additional observations from a re-analysis of the deposited data

How the results depend on the processing

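The counts are of the 27 tested genes called by limma. In the order spontaneous response, implanted response, difference, models after PBS and models after cGAMP they were 3, 4, 0, 2 and 3. Except for summed UMIs, the share of all genes called in each alternative is not given, here or above. A changed count therefore cannot be set against a change over all genes. With UMIs summed per library 10, 8, 7 and 8 were called (the difference stayed at 0), and in cells with at most 1 marker of another cell type 0, 1, 0 and 0. In cells with at least 2000 UMIs the difference gave 1 and the models after cGAMP 7. Median-of-ratios scaling gave 4 after PBS and 6 after cGAMP, and no filter gave 1 after PBS. Over all genes that scaling moved the share of calls that were higher from 40.2% to 66.4% and from 34.3% to 51.5% in the responses, and from 43.3% to 67.9% and from 38.0% to 58.7% between the models, while the median of all genes moved by less than 0.1. Leaving out 1 library gave 1 to 4, 3 to 6, 0 to 0, 1 to 4 and 0 to 5, where a lone library is assumed to vary like the others. In the arterial, tip, venous, proliferative and AQP7 capillary classes 9, 6, 11, 2 and 4 were called. Leaving out 1 library gave 9 to 10, 2 to 8, 8 to 11, 1 to 3 and 1 to 4. Cells with at most 1 marker of another type gave 2, 2, 2, 0 and 0. No filter gave 2 for tip, 7 for venous and 1 for AQP7 capillary. Without the library as a replicate block tip gave 1, venous 6, proliferative 1 and AQP7 capillary 0, and at least 3 markers for a class gave 4 for proliferative. Insig1 in arterial-marker cells turned to -0.0105 in cells with at most 1 marker of another type (limma adjusted p = 0.993). The cause of these changes was not tested. Replicate numbers did not pair the libraries, with correlations of same-numbered deviations from -0.22 to 0.13, and with the replicate number as a block the counts were 3, 3, 0, 2 and 3. The 5 counts without cells holding 3 markers of another type were 3, 3, 0, 2 and 3. With 2 libraries per group, low genes such as Sqle and Fasn, with as few as 27 and 40 UMIs in a library, are the least precise.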

Other observations

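In the 413 lymphatic-marker cells, Idi1 had opposite orders of PBS and cGAMP libraries in the models. It measured 25.1 and 23.3 CPM in spontaneous PBS against 1.69 and 2.52 CPM in spontaneous cGAMP, and 7.58 and 10.5 CPM in implanted PBS against 19.8 and 20.9 CPM in implanted cGAMP. The libraries did not overlap in either model. These levels rest on 26 and 27 lymphatic-marker cells in spontaneous PBS, 26 and 21 in spontaneous cGAMP, 54 and 38 in implanted PBS, and 163 and 58 in implanted cGAMP. The 163 cells of implanted cGAMP replicate 1 had a median of 2523 UMIs, against 8972 to 18880 in the other libraries. Of them 43 were at the minimum of 2 markers, against 0 to 3 elsewhere. Cyp51 had the same orders, at 11.0 and 11.9 against 2.58 and 1.66 CPM and at 5.17 and 11.6 against 15.7 and 27.0 CPM. The difference was not tested, and the values were singled out after they were seen.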
